A study of Mus musculus with 3 samples.

Results

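Lysosomal genes were measured in the cytosolic fraction of bone-marrow-derived macrophages from C57BL/6J mice, cultured cells that differentiate from marrow precursors and take up and digest particles. The 37 genes described here are a list of symbols that covers lysosomal hydrolases, their helper proteins and proteins of the lysosomal membrane. All 37 symbols matched 1 gene each among the 55536 genes in the table. The list was chosen with earlier results of these data known, so comparisons of its levels with other genes describe this list only. All 3 libraries came from 1 condition, wild-type C57BL/6J cells given 100 ng/ml Lipid A for 20 min, and were made from ribosomal-RNA-depleted total RNA. Lipid A anchors lipopolysaccharide in the outer membrane of bacteria and is sensed by Toll-like receptor 4. The labels number the libraries as biological replicates 1, 2 and 3 but give all of them 1 donor identifier, so each SD measures the spread between these samples, which may be partly technical. No unstimulated or nuclear library was analysed here, so no level below can be read as induced or as particular to the cytosol.

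Lysosomes are acidic organelles that break down material brought in by phagocytosis, endocytosis and autophagy. Soluble hydrolases reach them through the secretory pathway, most with a mannose-6-phosphate tag, and each enzyme removes a particular bond, so that loss of 1 enzyme leaves its substrate undigested in a storage disease. Membrane glycoproteins line the inner face of the organelle and shield it from those enzymes. The transcription factors of the MiT/TFE family (Tfeb, Tfe3, Mitf and Tfec) activate many lysosomal genes through a promoter sequence called the CLEAR motif, which is built around the E-box CACGTG.

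The promoters show which of these genes carry that E-box. Promoter windows of 250 bases before to 50 bases after an annotated start were available from RefSeq (GRCm38.p6, which has the mm10 coordinates) for 34 of the 37 genes, and no window was in the table for Galns, Asah1 and Npc1. CACGTG, which reads the same on both strands, occurred in 10 of the 34 genes. Among the 7346 nuclear protein-coding genes with a window and an average of 1 TPM or more (transcripts per 1000000), 12.8% had it, as did 7.15% of all 32851 windows. The extended form TCACGTG, searched on both strands and containing CACGTG, occurred in the same 10 genes, against 7.87% of expressed genes and 3.77% of all windows. The full palindromic CLEAR motif, which extends the E-box by a GT before it and an AC after it and so contains both shorter motifs, occurred in Cln3 alone, against 0.926% of expressed genes and 0.326% of all windows. The stretches are printed because they are the members' sequence most directly tied to the known control of this gene group. Each runs 5′ to 3′ on the gene's strand from 12 bases before the first match to 12 bases after the last, or to the start site where that comes first, with CACGTG in capitals, and genes are in order of TPM. For Cln3 and Mcoln1 only the second of their matches is shown.
Lamp1, chr8:13159088-13159160, plus strand: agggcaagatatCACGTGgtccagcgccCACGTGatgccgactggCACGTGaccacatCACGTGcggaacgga
Lgmn, chr12:102439124-102439153, minus strand: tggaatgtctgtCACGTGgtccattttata
Gla, chrX:134601182-134601244, minus strand: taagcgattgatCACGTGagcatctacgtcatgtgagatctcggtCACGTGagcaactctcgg
Naglu, chr11:101070009-101070038, plus strand: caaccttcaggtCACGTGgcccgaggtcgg
Cln3, chr7:126583340-126583369, minus strand: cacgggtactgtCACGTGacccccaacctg
Glb1, chr9:114401018-114401047, plus strand: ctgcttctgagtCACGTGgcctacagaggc
Gaa, chr11:119267811-119267840, plus strand: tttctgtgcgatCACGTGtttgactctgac
Mcoln1, chr8:3500462-3500491, plus strand: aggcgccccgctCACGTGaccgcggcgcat
Sgsh, chr11:119355522-119355551, minus strand: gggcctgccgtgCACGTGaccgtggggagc
Arsa, chr15:89477425-89477452, minus strand: tcaactcagtgtCACGTGttgtctgctc

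These windows held 16 matches, and every match had a T before it or an A after it, so that each is also a TCACGTG on one strand. Among windows of expressed genes with CACGTG, 61.8% held the extended form. Of the 16 matches, 4 carried the extension on both sides: both in Gla, 1 in Cln3 and 1 in Mcoln1. Lamp1 had 4 copies, a number reached by 8 of the 32851 windows (0.0244%), and Gla, Cln3 and Mcoln1 had 2 each. Match centres lay between 224 and 12 bases before the start. A match is a description of the letters and does not show that a factor bound there. Levels of genes with and without the motif overlapped: the genes with CACGTG had a median of 30.0 TPM and ran from 6.92 (Arsa) to 609 TPM (Lamp1), while the 24 genes with a window and no match had a median of 86.2 TPM and ran from 4.02 to 4409 TPM. The MiT/TFE factors themselves were all measured, with means of 25.1 ± 3.53 TPM for Tfe3, 10.1 ± 1.42 TPM for Tfeb, 9.62 ± 1.47 TPM for Mitf and 8.89 ± 1.78 TPM for Tfec (SD, n = 3).

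**Figure D1:**
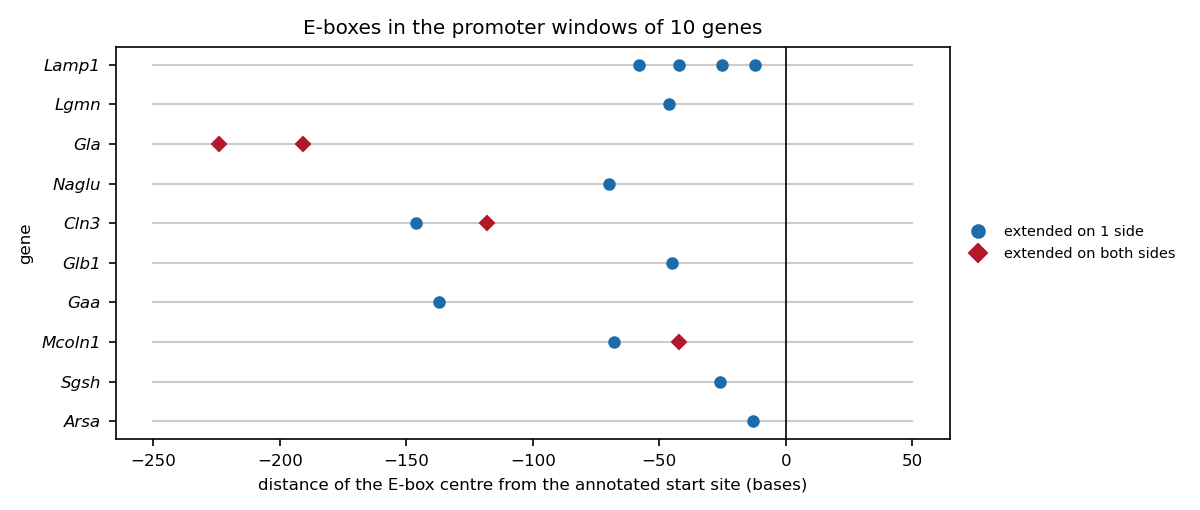
Position of each CACGTG in the promoter windows of the 10 genes that hold one, as the distance of its centre from the annotated start site in bases. Grey lines span each window, circles mark matches extended to TCACGTG on 1 side, diamonds those extended on both sides, and genes run from the highest TPM (Lamp1, 4 matches) at the top to the lowest (Arsa) at the bottom.

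The libraries differed in depth, with 27282444, 81509889 and 37131774 expected counts on gene rows in replicates 1, 2 and 3. The protein-coding genes of the nuclear genome took 24.97%, 22.0% and 19.6% of TPM, so each TPM was also rescaled to a sum of 1000000 over those 22015 genes in its library. Malat1 and Neat1, nuclear RNAs, were highest in replicate 3 (359, 248 and 763 TPM, and 31.7, 23.6 and 83.9 TPM, in replicates 1, 2 and 3). The cells carried their label's markers: all 10 macrophage markers were at 1 TPM or more in every library, including the colony-stimulating factor receptor Csf1r at 214 ± 41.3 TPM (SD, n = 3). Most markers of other cells were low. The 6 mast cell markers summed to between 0.410 and 0.590 TPM with Tpsab1 and Cma1 at 0, and the 5 B cell markers to between 0.660 and 1.02 TPM. The 9 neutrophil markers summed to between 19.1 and 28.4 TPM. Of these 9, 3 were at 1 TPM or more in every library: S100a9 (13.1 ± 2.17 TPM), S100a8 (8.65 ± 2.15 TPM) and Ngp (1.94 ± 0.805 TPM). Of 8 osteoclast markers, 1 was at 1 TPM or more in all libraries, Atp6v0d2 at 63.6 ± 14.3 TPM, while Ocstamp and Calcr were at 0.

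All 37 lysosomal genes reached 1 TPM or more in every library, against 40.5% of the 22015 nuclear protein-coding genes. The lowest expected count of any of them was 797, for Arsb in replicate 1. Their median level was 42.9 TPM, above 91.6% of the 9165 nuclear protein-coding genes averaging 1 TPM or more, whose median was 6.66 TPM. Of the 37 genes, 10 were among the 100 highest of those genes and 22 among the 1000 highest. The levels within the group were far from even: 14 genes had a mean of 100 TPM or more, 33 had 10 TPM or more, and the highest exceeded the lowest 1097-fold. Together they held 4.78%, 4.93% and 5.36% of nuclear protein-coding counts in replicates 1, 2 and 3, with Wilson 95% intervals of 4.771 to 4.788, 4.928 to 4.938 and 5.354 to 5.370%, a mean of 5.02% ± 0.302 (SD, n = 3). The intervals cover counting error only. Psap alone accounted for 50.1% ± 2.15 of these counts (SD, n = 3). Without it the other 36 genes held 2.50%, 2.43% and 2.58%, a mean of 2.50% ± 0.0738 (SD, n = 3).

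**Figure D2:**
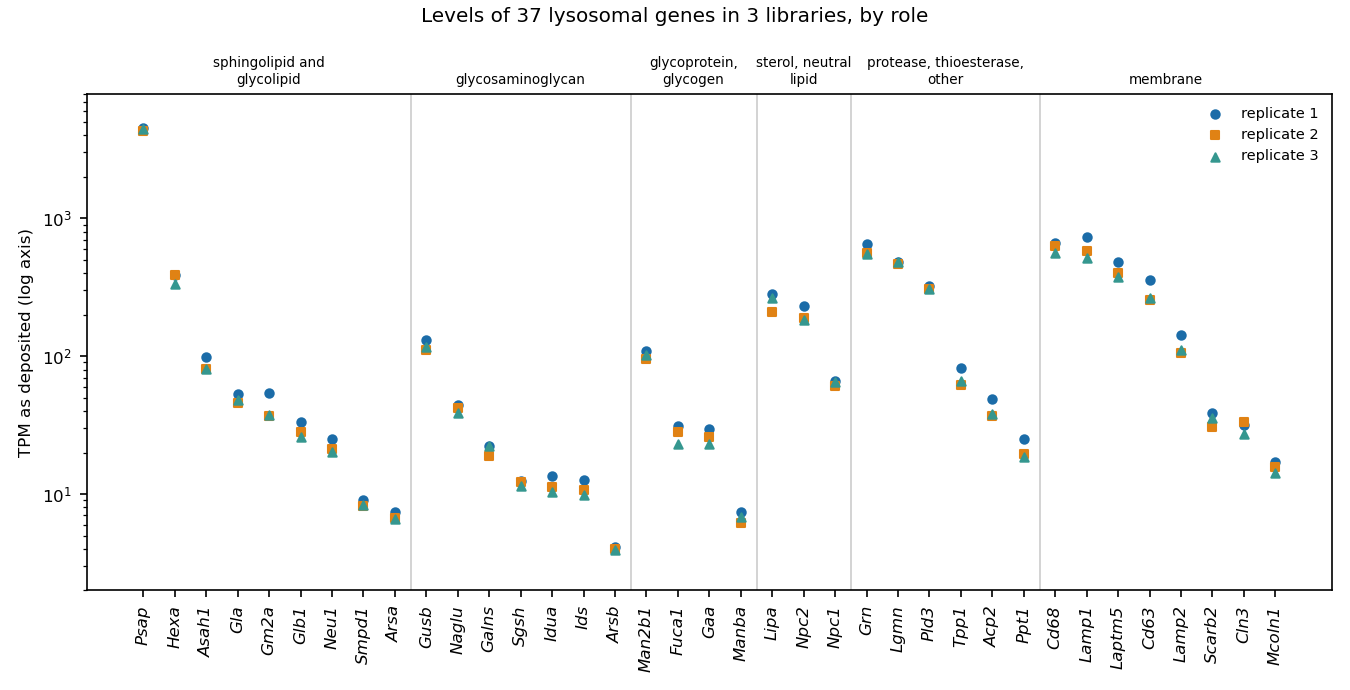
TPM of each of the 37 genes in each library on a log axis, grouped by role and ordered by mean within a role, with 1 symbol per replicate. Psap stands 7.13-fold above the next gene, Cd68, and within most roles the levels cover more than 10-fold while the 3 libraries of a gene lie close together.

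The 9 genes of sphingolipid and glycolipid breakdown held 2.83% ± 0.255 of nuclear protein-coding counts (SD, n = 3), nearly all of it Psap. Psap (chromosome 10, 60277627 to 60302597, plus strand, mm10) encodes prosaposin, the precursor of the saposins that present sphingolipids to their hydrolases. It measured 4497, 4285 and 4446 TPM in replicates 1, 2 and 3, the fourth highest of the 9165 expressed genes, and 18009, 19475 and 22626 after rescaling. On the deposited scale the libraries were nearly equal, and on the rescaled scale replicate 3 was highest and replicate 1 lowest. Hexa, the alpha subunit of beta-hexosaminidase A, followed at 367 ± 31.4 TPM (SD, n = 3). Gm2a, the activator that lifts ganglioside out of the membrane for this enzyme, measured 42.9 ± 9.93 TPM. Acid ceramidase (Asah1) measured 86.6 ± 10.3 TPM, alpha-galactosidase A (Gla) 49.0 ± 3.89 TPM, beta-galactosidase (Glb1) 29.2 ± 3.71 TPM and the sialidase Neu1 22.1 ± 2.45 TPM. At the low end were acid sphingomyelinase (Smpd1), at 8.56 ± 0.472 TPM, and the sulfatide sulfatase Arsa, at 6.92 ± 0.448 TPM.

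The 7 enzymes that take apart glycosaminoglycans, the long sulfated sugar chains of proteoglycans, were lower, with a median of 12 TPM and 0.136% ± 0.00641 of nuclear protein-coding counts (SD, n = 3). Beta-glucuronidase (Gusb) was the exception at 130, 111 and 117 TPM in replicates 1, 2 and 3. Naglu, which removes N-acetylglucosamine from heparan sulfate, measured 41.7 ± 2.66 TPM (SD, n = 3), and Galns, which acts on keratan and chondroitin sulfate, measured 21.1 ± 2.02 TPM. The heparan sulfamidase Sgsh (12 ± 0.540 TPM), alpha-L-iduronidase (Idua, 11.7 ± 1.61 TPM) and iduronate sulfatase (Ids, 11.1 ± 1.35 TPM) lay close together, and their ranges over the 3 libraries overlapped. Arsb, the sulfatase of dermatan sulfate, was the lowest of all 37 genes at 4.14, 4.0 and 3.92 TPM. Arsb also shared 32.3% of its exon bases with the non-coding gene Gm26527, which measured 1.3 TPM, and whether the libraries keep strand is not stated in those sources that were used, so reads of overlapping genes on opposite strands cannot be told apart.

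Glycoprotein and glycogen enzymes were led by the alpha-mannosidase Man2b1 at 103 ± 6.83 TPM (SD, n = 3). The fucosidase Fuca1 measured 27.4 ± 4.01 TPM and Gaa, the glucosidase that degrades glycogen, 26.2 ± 3.42 TPM, with overlapping ranges. Beta-mannosidase (Manba) was lower at 6.82 ± 0.620 TPM. The 3 genes of sterol and neutral lipid handling were all well expressed. Lysosomal acid lipase (Lipa), which hydrolyses cholesteryl esters and triglycerides, measured 284, 207 and 266 TPM in replicates 1, 2 and 3. Npc2 and Npc1, which pass the freed cholesterol from the lumen to the membrane and out of the organelle, measured 201.4 ± 27.4 TPM and 63.8 ± 3.15 TPM. The luminal carrier was thus above the membrane transporter in every library.

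Of the 6 proteases and other soluble proteins, 3 were above 300 TPM. Progranulin (Grn), a secreted and lysosomal precursor of granulin peptides, measured 588 ± 57.0 TPM (SD, n = 3), the asparaginyl endopeptidase legumain (Lgmn) 477 ± 8.48 TPM and the exonuclease Pld3 313 ± 10.2 TPM. The other 3 were the tripeptidyl peptidase Tpp1 at 70.0 ± 10.2 TPM, acid phosphatase Acp2 at 41.3 ± 6.67 TPM and Ppt1, which removes palmitate from proteins, at 21.1 ± 3.63 TPM. Ppt1 shared 3.51% of its exon bases with Cap1, which measured 100.9 TPM. In all, 12 of the 37 genes shared exon bases with another gene, 8 of them with one at a mean of 1 TPM or more, and 25 shared none.

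The 8 membrane proteins had a median of 206 TPM and held 0.849% ± 0.0263 of nuclear protein-coding counts (SD, n = 3). Cd68, a heavily glycosylated macrophage protein of the LAMP family, measured 656, 634 and 564 TPM in replicates 1, 2 and 3, and Lamp1 measured 731, 580 and 517 TPM. Replicate 1 was highest and replicate 3 lowest for both, and their ranges overlapped. Laptm5, a lysosomal protein of blood cells, measured 419 ± 56.9 TPM and the tetraspanin Cd63 292 ± 56.6 TPM. Lamp2, which takes part in autophagy with Lamp1, measured 119 ± 20.0 TPM, below Lamp1 in every library. The lowest levels were those of Scarb2, the receptor that carries glucocerebrosidase to the lysosome, at 35 ± 4.11 TPM, Cln3, a multi-pass protein mutated in Batten disease, at 30.8 ± 3.19 TPM, and the cation channel Mcoln1 at 15.6 ± 1.44 TPM.

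Lysosomal genes outside the 37 were detected nearly throughout. Of 19 other hydrolases and related genes, 18 were at 1 TPM or more in every library, with a median of 24.2 TPM. They were led by the protective protein Ctsa at 317 ± 17.0 TPM (SD, n = 3). The exception was the sulfatase Arsg, at 0.75, 0.74 and 0.810 TPM. All 16 other membrane proteins were at 1 TPM or more, with a median of 19.2 TPM and Laptm4a highest at 76.5 ± 10.3 TPM. All 12 genes of mannose-6-phosphate tagging or of delivery by this or other routes were at 1 TPM or more, with a median of 15.8 TPM. They were led by the cation-dependent receptor M6pr at 64.8 ± 10.4 TPM. Of 14 cathepsins and related genes, again including Ctsa, 11 were at 1 TPM or more in every library, with a median of 138 TPM.

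Which library was highest depended on the scale. As deposited, 36 of the 37 genes were highest in replicate 1, as were 82.1% of the 9165 expressed genes. The exception was Cln3, highest in replicate 2 (13.7% of expressed genes) at 31.7, 33.5 and 27.3 TPM in replicates 1, 2 and 3. No member was highest in replicate 3 (4.12% of expressed genes) or lowest in replicate 1 (4.14%). The lowest library was replicate 3 for 19 genes (77.3% of expressed genes) and replicate 2 for 18 (18.5% of expressed genes). After rescaling to the protein-coding total, 11 genes were highest in replicate 1 (30.4% of expressed genes), 4 in replicate 2 (31.3%) and 22 in replicate 3 (38.3%). Replicate 2 became the lowest for 22 genes (31.9%), replicate 1 for 13 (36.5%) and replicate 3 for 2, Lamp1 and Fuca1 (31.6%). These counts set no least difference, and some orders were near-ties. Ids was at 50.3 and 50.4 rescaled TPM in replicates 1 and 3. In replicates 2 and 3, Cd68 was at 2882 and 2869 and Lamp1 at 2638 and 2630. In pairs, 32 of the 37 genes were higher in replicate 3 than in replicate 2, against 52.1% of expressed genes, with a median log2 ratio of 0.15 against 0.01. Replicate 3 exceeded replicate 1 in 25 genes (54.6% of expressed genes), and replicate 2 exceeded replicate 1 in 14 (51.5%). Malat1 and Neat1 were likewise highest in replicate 3, also after rescaling, and their part in this order was not tested.

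**Figure D3:**
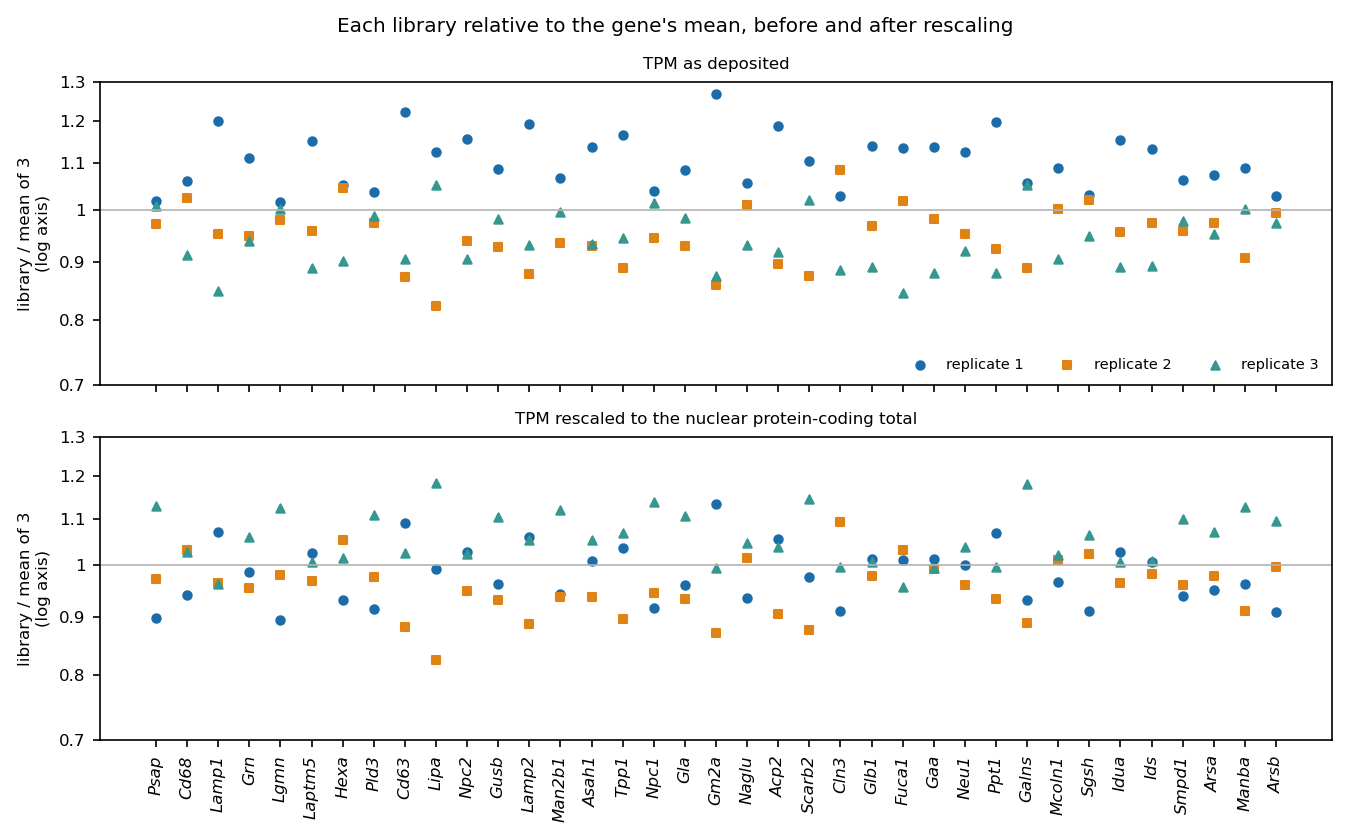
Each library's value divided by the gene's mean over the 3 libraries, on a log axis, for TPM as deposited (top) and after rescaling to the nuclear protein-coding total (bottom), with genes from the highest to the lowest mean TPM. Replicate 1 is on top for 36 of 37 genes before rescaling, and replicate 3 for 22 of 37 after it.

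By role, replicate 3 was highest after rescaling for 6 of 9 sphingolipid genes, 6 of 7 glycosaminoglycan genes, 2 of 4 glycoprotein and glycogen genes, 2 of 3 sterol and lipid genes and 4 of 6 proteases and other soluble proteins, but for 2 of 8 membrane proteins, of which 4 were highest in replicate 1. Of these 4, Laptm5 (1933 and 1897 rescaled TPM in replicates 1 and 3) and Lamp2 (568 and 564) were near-ties. In the second transcript table, another estimate from the same reads, Laptm5 and Lamp2 were highest in replicate 3. Lamp1 and Cd63 stayed highest in replicate 1 there, and Mcoln1 moved from replicate 3 to replicate 2. Among the membrane proteins only Laptm5, Lamp2 and Scarb2 were highest in replicate 3 in the second table, against 26 of all 37 genes. In both tables most membrane proteins were thus not highest in replicate 3, while most of the 37 genes were. Which membrane proteins were highest in replicate 1 depended on the estimate, and the difference between roles was not tested. Among genes with CACGTG in the promoter window 6 of 10 were highest in replicate 3, and among those with a window and no match 13 of 24.

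The differences between libraries were small in size. After rescaling, 0 of the 37 genes had a highest library at least 1.5 times the lowest, against 6.25% of the 9165 expressed genes and 3.89% of the 3397 that averaged 10 TPM or more. A highest library at least 25% above the lowest was seen in 6 of 37, against 23.2% of expressed genes. For the 33 lysosomal genes at 10 TPM or more it was 6, against 17.2% of all genes at that level. The median ratio of highest to lowest was 1.17 over the 37 genes. It was 1.14 over the expressed genes and 1.13 over those averaging 10 TPM or more, so the lysosomal median was slightly above both.

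**Figure D4:**
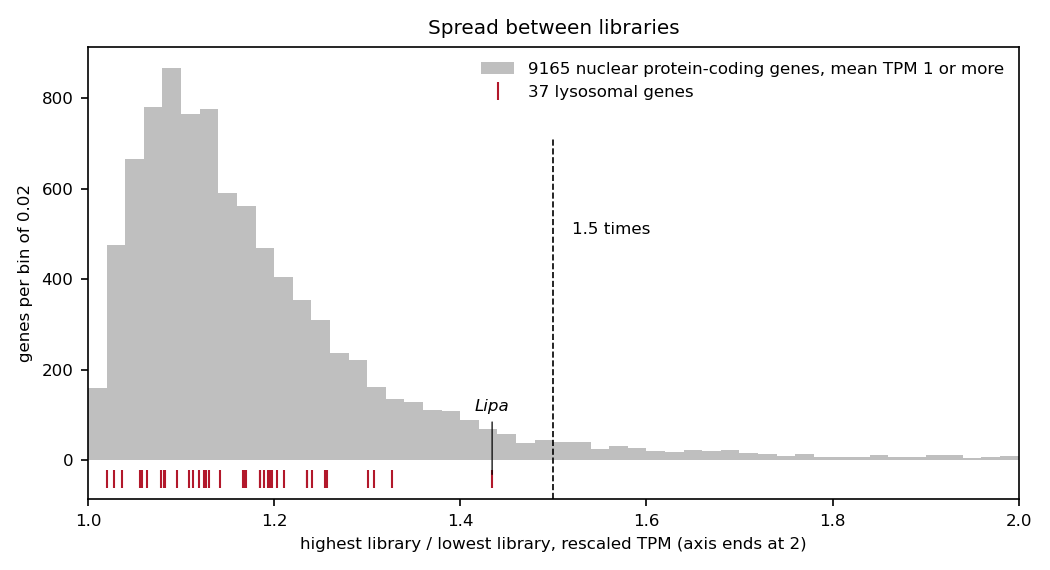
Ratio of the highest to the lowest library after rescaling, for the 9165 expressed nuclear protein-coding genes (grey histogram, bins of 0.02, axis ending at 2) and the 37 lysosomal genes (red ticks). All ticks lie below the dashed line at 1.5, and Lipa, at 1.43, is the farthest right.

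Lipa varied most, at 1136, 942 and 1352 rescaled TPM in replicates 1, 2 and 3, a ratio of 1.43 between replicates 3 and 2. Its expected counts were 39274, 94307 and 57481. Galns measured 89.2, 85.1 and 113 rescaled TPM (ratio 1.33) and Scarb2 155, 139 and 182 (ratio 1.31). In all of these replicate 3 was highest and replicate 2 lowest. Gm2a had the other order, with 218, 168 and 191 rescaled TPM, highest in replicate 1 and again lowest in replicate 2 (ratio 1.3). Psap (ratio 1.26) and Lgmn, at 1942, 2128 and 2436 (ratio 1.254), were highest in replicate 3 and lowest in replicate 1 on this scale. As deposited their libraries differed by 1.05-fold and 1.04-fold. At the even end, Gaa measured 119, 117 and 117 rescaled TPM (ratio 1.02), Ids 50.3, 49.0 and 50.4 (ratio 1.03) and Glb1 133, 129 and 133 (ratio 1.04).

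The transcript tables show which forms of each gene made up these levels. The genes had between 1 and 19 annotated transcripts, and in 35 of 37 a single transcript held at least 50% of the gene's TPM in every library, against 79.4% of the expressed genes. The exceptions were Cln3 and Lgmn. In the second transcript table, which was made by another estimate from the same reads, the number was 34, against 75.5%, and the exceptions were Arsa, Lamp2 and Cln3. The highest transcript was protein-coding in 36 of 37 genes. Several splits do not touch the protein: Gaa-201 and Gaa-203 have the same 2862 coding bases, Lgmn-201 and Lgmn-202 the same 1308 and Lipa-201 and Lipa-202 the same 1194. Lgmn-201 held 51% ± 4.55 of Lgmn and Gaa-203 held 51.4% ± 1.46 of Gaa (SD, n = 3).

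**Figure D5:**
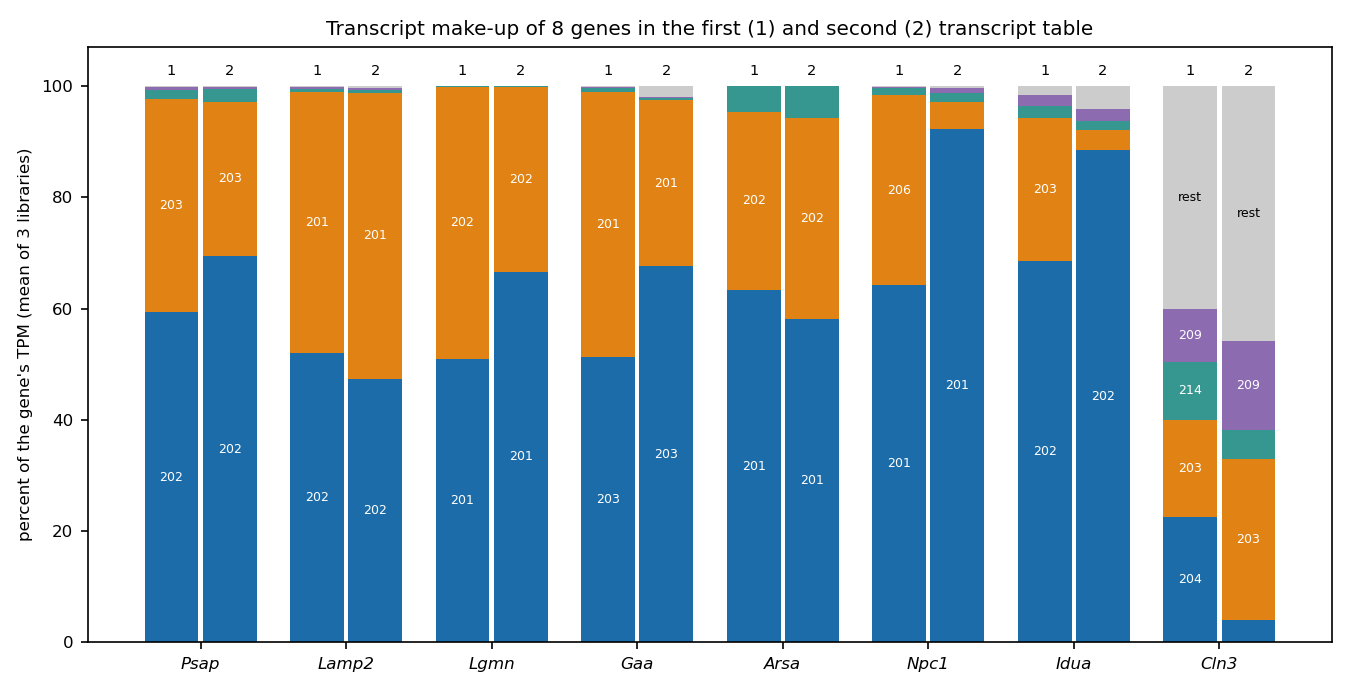
Percent of the gene's TPM held by each transcript (mean of 3 libraries) for 8 genes split between transcripts, in the first (1) and second (2) transcript table, with transcript numbers on the bars and the fifth and lower transcripts summed in grey. Lamp2 is split about evenly between transcripts 202 and 201 in both tables, while for Npc1 and Cln3 the tables differ.

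In Lamp2 the split changes the end of the protein. Its transcripts share 1109 coding bases and then differ in the last exon, which encodes the membrane span and the short cytosolic tail: 139 bases in Lamp2-201 (the A form, known for chaperone-mediated autophagy), 139 in Lamp2-202 (the B form) and 142 in Lamp2-203 (the C form). Lamp2-202 held 50.8%, 50.2% and 54.9% of Lamp2 TPM in replicates 1, 2 and 3, and Lamp2-201 held 48.4%, 49.0% and 43.7%. The B form was slightly ahead in all 3 libraries. In the second table the means were 47.3% ± 2.60 for Lamp2-202 and 51.5% ± 3.13 for Lamp2-201 (SD, n = 3), so which form led depended on the estimate and the near-even split did not. Some lysosomal membrane proteins, among them Lamp1, Lamp2 and Cd63, carry a sorting signal in the cytosolic tail. It is a glycine and tyrosine pair near the end of the protein followed by a bulky hydrophobic residue at or near the end. The last 12 codons of the coding sequences, stop codon included, are shown 5′ to 3′ from the GENCODE M21 transcripts (mm10), with the glycine-tyrosine codon pair in capitals, because they show what the tails of the Lamp2 forms share and where they differ.
Lamp1-201, chr8:13174523-13174558, plus strand: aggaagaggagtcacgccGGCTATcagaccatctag
Lamp2-201, chrX:38405432-38405467, minus strand: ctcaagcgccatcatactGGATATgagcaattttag
Lamp2-202, chrX:38421712-38421747, minus strand: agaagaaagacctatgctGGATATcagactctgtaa
Lamp2-203, chrX:38402139-38402174, minus strand: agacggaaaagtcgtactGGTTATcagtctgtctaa
Cd63-201, chr10:128912705-128912740, plus strand: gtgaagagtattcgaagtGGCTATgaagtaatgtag
Scarb2-201, chr5:92444246-92444281, minus strand: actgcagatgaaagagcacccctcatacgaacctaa

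All 3 Lamp2 forms, Lamp1 and Cd63 have the codon pair at the same place, 3 codons before the stop, while the bases before it differ between the Lamp2 forms. Scarb2, which is sorted by a dileucine-type signal, has no such pair in this stretch. Across the annotation, 36 of the 21677 genes with an annotated stop codon had the pair at that place in some protein-coding transcript (0.166%), and 3 of the 36 were among the 37 genes described here.

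Psap was made up of 2 major transcripts, Psap-202 at 56.7%, 61.1% and 60.6% and Psap-203 at 41.1%, 36.6% and 36.7% of its TPM in replicates 1, 2 and 3. They differ at the start of the coding sequence, where 40 bases are found only in Psap-202 and 31 only in Psap-203. In the second table Psap-202 held more, 69.5% ± 3.49 (SD, n = 3). The other Psap transcripts carry a short insert in the saposin B region, after coding base 774 in each of Psap-205, Psap-201 and Psap-204, but the inserted bases come from different places in the gene. The stretch without an insert and with each insert is shown 5′ to 3′ on the plus strand, the inserted bases in capitals, because it shows what sets these minor forms apart. The bases inserted in Psap-204 do not lie together in the genome, so no position is given for them.
Psap without the insert: ttgatgcacatgcaacccaaggaa
Psap-205, insert at chr10:60297537-60297545: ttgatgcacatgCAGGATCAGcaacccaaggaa
Psap-201, insert at chr10:60299092-60299097: ttgatgcacatgCTTCAGcaacccaaggaa
Psap-204: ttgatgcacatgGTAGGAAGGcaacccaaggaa

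Forms with an insert made up 2.21%, 2.30% and 2.72% of Psap TPM in replicates 1, 2 and 3, a mean of 2.41% ± 0.272, and 2.85% ± 0.459 in the second table (SD, n = 3). Most of this was Psap-205, at 1.66% ± 0.225, and Psap-201 and Psap-204 held 0.612% ± 0.0233 and 0.140% ± 0.0410. Almost all Psap in these libraries was thus assigned to forms without an insert in both tables.

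In 1 gene the highest transcript was not coding. Arsa-201, annotated as retained_intron, held 54.0%, 70.0% and 65.9% of Arsa TPM in replicates 1, 2 and 3, and the coding Arsa-202 held 43.0%, 24.9% and 28.2%. The non-coding form was ahead in every library, and it also led in the second table, at 58.1% ± 7.53 (SD, n = 3). A retained_intron transcript led in 1.41% of expressed genes. Arsa is a low gene, with 1035, 2874 and 1345 expected counts, and it shares 18.8% of its exon bases with C230037L18Rik, which measured 0.277 TPM.

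For other genes the tables disagreed on the transcripts. Asah1-201 held 96.2% ± 0.618 of Asah1 in the first table and 62.2% ± 9.63 in the second (SD, n = 3). Fuca1-201 held 89.5% ± 3.87 and 61.8% ± 8.94 of Fuca1. Gusb-206, annotated as nonsense_mediated_decay, held 20.3% ± 5.76 and 2.36% ± 3.07 of Gusb. Npc1-206, a retained_intron form, held 34.1% ± 1.80 of Npc1 in the first table and 4.81% ± 0.562 in the second (SD, n = 3). Idua-203, which lacks 141 coding bases of Idua-202, held 25.7% ± 3.31 and 3.57% ± 3.94. Cln3-204, the highest Cln3 transcript in the first table at 22.5% ± 1.41, held 3.97% ± 0.771 in the second, where Cln3-203 led at 28.9% ± 1.51. Gene levels were closer: after rescaling, 31 of 37 means in the second table were within 10% of the first. The 6 outside that range were Cln3 (1.36 times the first table), Fuca1 (1.34), Asah1 (1.19), Arsb (1.102), Grn (0.884) and Npc1 (0.798), and 28 of 37 genes had the same highest library in both.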

How the data were processed

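Cytosolic RNA of 1 group of 3 macrophage libraries was analysed, grouped and numbered by the labels. Per the file headers and deposited notes, the authors quantified reads against GENCODE M21 (mm10). No source used here names the tools. Expected counts, as deposited, are estimated reads per gene, the deposited TPM values are scaled to a fixed sum over all rows, and the deposited FPKM values are per kilobase at a common depth. The second transcript table holds the authors' own estimated counts and TPM. Because TPM has a fixed sum, other abundant RNAs lower every mRNA together. Row totals and depth are given with the results; 26248 rows named by bare numbers held 2, 1 and 3 counts and phiX174 held 0.402%, 0.108% and 0.122% of all counts, and both stayed out.

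Gene symbols were joined by gene identifier. Rescaled TPM is TPM divided by the summed TPM of 22015 nuclear protein-coding genes, times 1000000. Shares used expected counts. Means carry the SD over libraries. Spread was the highest over the lowest library, with a limit of 1.5, also as the SD of log2(TPM + 1). Expected counts were rounded for TMM (edgeR 4.0.16) and DESeq2 1.42.0 size factors, used as scaling alternatives only. Transcript shares are percent of the gene's TPM. Promoters were searched for letters on both strands. The single condition leaves no groups to test, and no p-value is given. Every one of the 37 genes is named with its level; examples outside the 37 are the highest genes of a list, exceptions to a count or defining markers, and the values of some such genes are not reported here. The members and lists were chosen with earlier results of these data known.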

Additional observations from a re-analysis of the deposited data

How the results depend on the processing

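Detection of all 37 genes, the count of 22 genes highest in replicate 3 and the 36 highest in replicate 1 as deposited changed by less than 1.5 times under the alternatives tried. The 36 became 37 in the second transcript table before rescaling, so Cln3 was an exception in the first estimate only. With TMM or DESeq2 size factors 22 and 21 genes were highest in replicate 3, and with the second transcript table, rescaled, 26; counting by replicate 3 was chosen after seeing the data. The median of 42.9 TPM was 17.2 in the second transcript table, 192 after rescaling and 84.9 as FPKM, which are other scales, and 40.5 to 46.0 without 1 replicate. The share of 5.02% of nuclear protein-coding counts was 4.33% as a share of TPM and 4.86 to 5.15% without 1 replicate. At a limit of 25% between highest and lowest library, 6 genes passed. In the second table, rescaled, 7 genes rather than 11 were highest in replicate 1. Laptm5, Npc2, Lamp2, Acp2, Glb1 and Idua left that set, and Asah1 and Fuca1 joined it. In the genes that left, replicates 1 and 3 had been close, as in Laptm5 (1933 and 1897 rescaled TPM) and Lamp2 (568 and 564). Gaa, also close at 119 and 117, stayed, and the cause was not tested. The median SD of log2(TPM + 1) was 0.15, 0.25 in the second table and 0.06 to 0.16 without 1 replicate, lowest without replicate 1 (0.064). With the full palindromic CLEAR motif in place of CACGTG, 1 promoter matched. Of the 37 rescaled means, 25 moved by less than 1 SD in the second table and 12 by more. No paired analysis was possible because there is only 1 group. The lowest expected count of a gene was 797. The effect of depth on transcript shares was not tested.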
